A study of Mesocricetus auratus with 24 samples.

Results

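The bypass culture, Syrian hamster cells that resumed growth after senescence, was compared with early unexposed cells, from a separate run of the same kind of cell transformation assay, by reduced representation bisulfite sequencing. The members are 8 of the 24 libraries in the series, taken by their titles: the 4 titled Senescence-bypass (SENbp) and the 4 titled as untreated pooled colonies (DMSO). The SENbp libraries came from 1 culture at day 94, grown from a morphologically transformed colony that had been treated with B[a]P (benzo[a]pyrene, a polycyclic aromatic hydrocarbon whose metabolites bind DNA) at 5 µg/mL. They are described as technical replicates, so their spread holds no variation between cultures. The DMSO libraries are described as biological replicates and came from pools of about 60 colonies at day 9 that had received the vehicle alone (0.2% DMSO). The bypass culture goes back to an assay on mixed fetuses of both sexes and was typed male by quantitative PCR, while the vehicle pools go back to an assay on 1 male fetus. Age in culture, B[a]P, descent from 1 colony and fetal origin therefore all differ between the groups and cannot be told apart here. The other groups served to sort windows by level and density, to choose deeply read positions and to give levels beside the comparison. They are pools after B[a]P at 5 µg/mL (day 9), cultures from B[a]P-treated colonies of normal or transformed morphology (day 19 to 25), and the senescent state of the bypass culture (day 48, technical replicates).

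Methylation of cytosine in CpG dinucleotides is copied to daughter strands by DNMT1 and set anew by DNMT3A and DNMT3B. In normal mammalian cells CpG-rich stretches, many of them at gene starts, are mostly unmethylated, while isolated CpGs are mostly methylated. Primary hamster fetal cells stop dividing after a limited time in culture, a state called senescence, and cultures that pass this barrier are immortalised. Gain of methylation at CpG-rich sequence, with loss elsewhere, is widely known from immortalised lines and tumours.

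Each of the 8 libraries held 809562 to 1259945 CpG positions, strands listed apart, with a median of 21 to 34 reads per position. Coverage summed over positions was 35033371 to 48909677 in the bypass libraries and 30316233 to 38145508 in the vehicle pools. Reads were summed over windows of 1 kb with at least 3 positions in each library, which gave 33678 measured windows. Of these, 20019 with pooled methylation of 5 to 95% were tested. Positions follow the deposited files, with no gene names, because an annotation of that assembly was not used here.

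Methylation was higher in the bypass culture on average and at most tested windows. Over the 54241 positions listed in all 8 libraries, the bypass libraries stood at 53.22%, 53.28%, 53.24% and 53.29%. The vehicle pools stood at 49.32%, 47.40%, 49.20% and 48.78%. The groups did not overlap, and replicate 2 was the lowest of the pools. The difference was 4.58 percentage points (53.3% ± 0.0307 against 48.7% ± 0.880, SD, n = 4 each; exact permutation test, two-sided p = 0.0286, the lower limit for 70 assignments). Since the bypass libraries are technical replicates, this and every p-value below compare 1 culture with the pools and do not extend to other cultures. Over the 20019 tested windows the means were 60.8% ± 0.189 in bypass and 51.1% ± 1.11 in vehicle (SD, n = 4). Windows near 0 or 100% in both groups are left out of this second average. Of the tested windows, 73.6% had a higher mean in bypass, and the median difference was 8.46 points.

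In the window test, 4540 windows (22.7% of those tested) were called higher and 309 (1.54%) lower, at an adjusted p below 0.05 and group means at least 10 points apart (quasi-binomial test with squeezed dispersions, Benjamini-Hochberg). Gains thus made up 93.6% of the calls. The median change was 27.2 points (quartiles 17.5 and 39.8) among those called higher and -29.3 points (quartiles -38.4 and -22.5) among those called lower. The groups did not overlap at 3388 called gains and 207 called losses, where 23.5% of all tested windows were separated in either direction. Another test gave far fewer calls. In edgeR, the quasi-likelihood fit on the same windows called 744 higher and 13 lower (3.78% of those tested in all), of which 748 were also called by the quasi-binomial test.

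The gain was not concentrated on a few scaffolds. Windows called higher lay on 351 of the 903 scaffolds with a tested window. On each of the 123 scaffolds with at least 50 tested windows the mean difference was above 0, between 4.17 and 19.9 points, and calls in the direction of gain outnumbered those of loss. The share of windows called higher on these scaffolds had a median of 23.2%. It ran from 11% on KB708252.1, 28 of 254 windows, to 39.3% on KB708135.1, 24 of 61 windows.

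Windows were next sorted by their level in the 4 B[a]P pools, which take no part in the comparison, so that no vehicle or bypass library set its own class. All measured windows were used here, without the limit of 5 to 95%. Among the 15454 windows under 20% in the B[a]P pools, the bypass libraries averaged 8.10%, 7.64%, 8.11% and 8.01%. The vehicle pools averaged 2.79%, 2.53%, 2.96% and 2.85% in the same windows. Every bypass library lay above every pool, and the difference was 5.18 points (7.97% ± 0.22 against 2.78% ± 0.181, SD, n = 4). Most of these low windows moved little. The median window differed by 0.966 points and 69.5% of windows by less than 5 points, while the 5% of windows with the highest differences held 41.4% of the summed gain. In this class 1890 windows were called higher and 18 lower. The gains were 40.1% of its 4709 tested windows, beside 22.7% over all classes. The limit of 5 to 95% on tested windows takes in the bypass reads, so low windows could enter the test through a gain in bypass. The first share is therefore not a measure of how often low windows gained. Of the measured windows, 12.2% were called higher, beside 32.2%, 17.1% and 7.59% in the successive higher classes.

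Windows of intermediate level moved most. In the 2457 windows at 20 to 50% in the B[a]P pools, the bypass libraries averaged 53.2%, 52.8%, 52.8% and 52.4%. The vehicle pools averaged 36.3%, 32.6%, 36.0% and 34.9%. The groups did not overlap and differed by 17.8 points (52.8% ± 0.329 against 35.0% ± 1.67, SD, n = 4), with a median window difference of 17.3 points. Of the measured windows in this class, 790 (32.2%) were called higher and 36 (1.47%) lower. In the 4804 windows at 50 to 80%, the difference was 6.71 points (74.2% ± 0.123 against 67.5% ± 1.34), with 821 windows called higher and 117 lower. Over positions listed in every one of the 8 libraries it was 3.58 points, from 1354 windows.

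Highly methylated windows did not lose methylation on average. In the 5623 windows at 80% or more in the B[a]P pools, the bypass libraries averaged 90.5%, 90.4%, 90.6% and 90.6%. The vehicle pools averaged 87.6%, 85.9%, 87.5% and 87.3%. The groups did not overlap and differed by 3.46 points (90.5% ± 0.109 against 87.1% ± 0.784, SD, n = 4). The size of this difference rested on how windows were sorted: with classes set by the vehicle pools themselves it was 0.941 points, over 7148 windows. Losses were called at 70 of these windows and gains at 427, out of 4174 tested. All 4 classes reached the smallest p that the design allows (exact permutation test, two-sided p = 0.0286; Benjamini-Hochberg over the 4 classes leaves 0.0286).

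**Figure D1:**
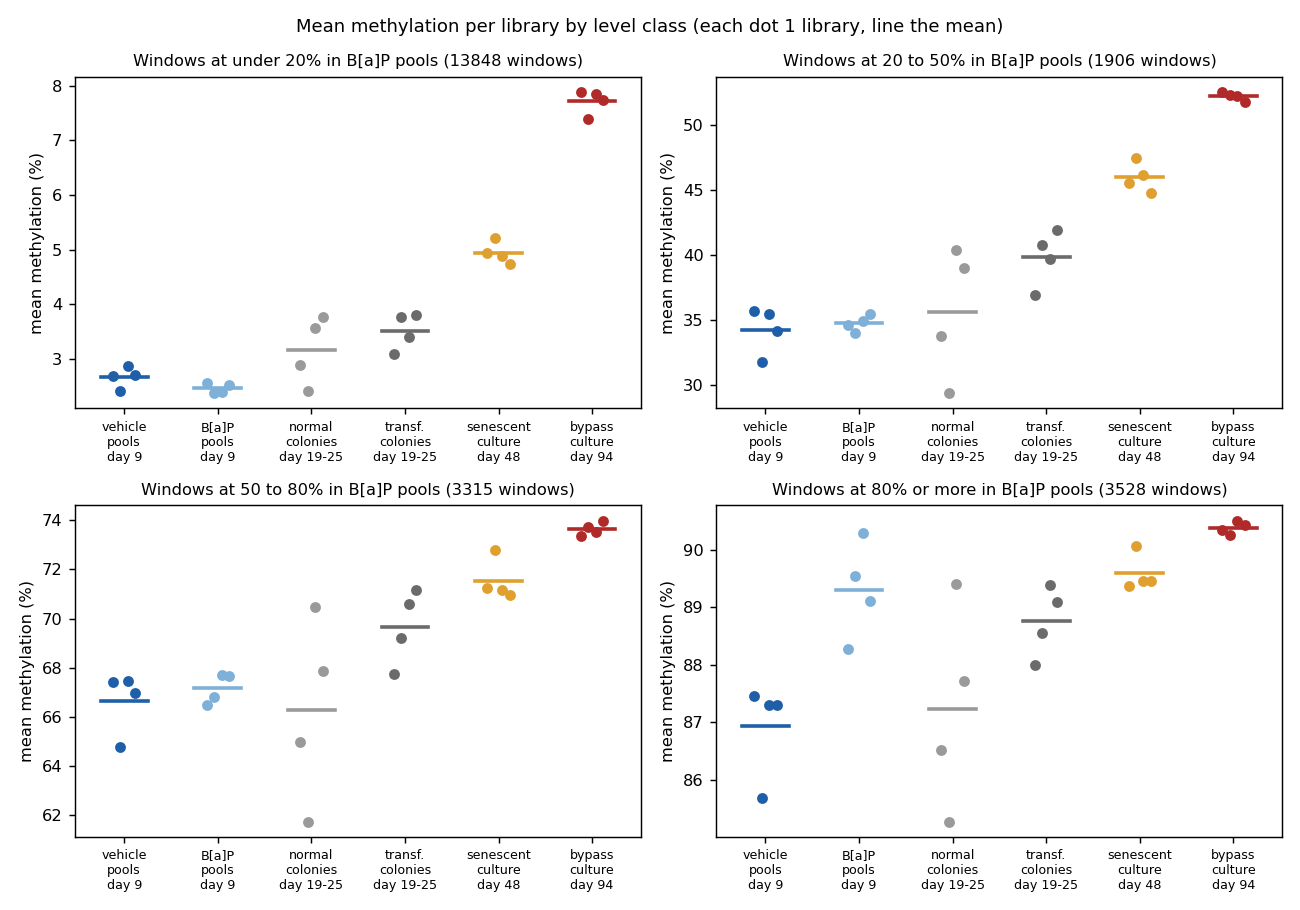
Mean methylation per library (%, y axes differ and do not start at 0) in windows measured in all 24 libraries, sorted into 4 classes by their level in the B[a]P pools; each dot is 1 library and each line the mean of 4. In each class all 4 bypass libraries lie above all 4 vehicle pools, with means of 7.72% against 2.67% in the lowest class.

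The levels of the other groups lay between those of the compared groups, or near the vehicle pools. Over the 13848 windows of the lowest class measured in all 24 libraries, the mean was 2.67% ± 0.184 in vehicle pools, 2.47% ± 0.0888 in B[a]P pools, 3.16% ± 0.623 in normal and 3.52% ± 0.339 in transformed colonies. It was 4.95% ± 0.203 in the senescent culture and 7.72% ± 0.223 in the bypass culture (SD, n = 4). The order in the 1906 windows of the 20 to 50% class was the same for the cultures, at 35.6% ± 5.07 in normal colonies, 39.8% ± 2.17 in transformed colonies, 46.0% ± 1.12 in senescence and 52.2% ± 0.30 in bypass, against 34.2% ± 1.79 in vehicle pools. The normal and transformed colonies overlapped in both classes. The levels of the B[a]P pools set the classes and are given only as a description.

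CpG density was taken as the number of positions per window listed in any of the 24 libraries, strands counted apart. It depends on the positions read as well as on the sequence. In the densest quartile of measured windows, with 60 to 241 positions, the bypass mean of 8.05% ± 0.208 exceeded the vehicle mean of 3.96% ± 0.132 by 4.09 points. The third quartile (29 to 59 positions) stood 7.31 points higher in bypass, at 28.7% ± 0.257 beside 21.4% ± 0.491. The second quartile (15 to 28 positions) stood 8.04 points higher, at 59.9% ± 0.120 beside 51.9% ± 0.946. Density and gain did not run in parallel, since the sparsest quartile (3 to 14 positions) gained 5.54 points, from 65.5% ± 1.0 to 71.0% ± 0.0874 (SD, n = 4). The groups did not overlap in any quartile (exact permutation test, two-sided p = 0.0286; also 0.0286 adjusted over 4 quartiles).

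Density and starting level overlap, so the difference was read within level classes. From sparse to dense, the mean difference rose from 12.9 to 18.7, 21.5 and 22.9 points in windows at 20 to 50% in the B[a]P pools. It rose from 3.93 to 7.62, 10.8 and 17.3 points in those at 50 to 80%, and from 3.12 to 3.51, 4.09 and 5.39 points in those at 80% or more. In windows under 20% it went the other way, from 9.48 to 8.65, 5.92 and 3.47 points. The vehicle level in that class also fell with density, from 7.24% ± 0.620 to 1.53% ± 0.0882 (SD, n = 4). These windows thus differed in where they started. In the 20 to 50% class the vehicle level fell from 38.0% to 29.9%, while bypass stood at 51.0%, 54.0%, 53.3% and 52.9%. In the 50 to 80% class the vehicle level fell from 67.8% to 63.2%, and bypass rose from 71.7% to 80.6%. Differences in start thus enter the rises of these classes too. All 4 bypass libraries lay above all 4 pools in each of these 16 combinations of level and density. Trends over density were not tested.

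**Figure D2:**
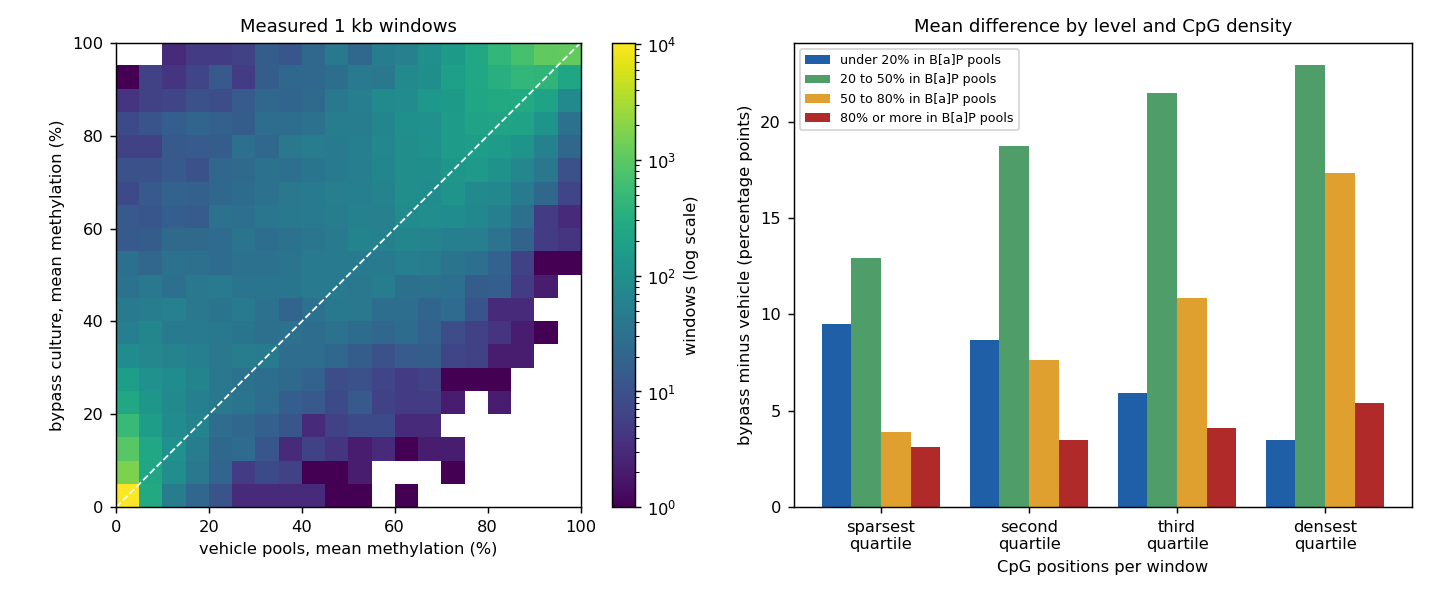
The left panel counts measured 1 kb windows by mean methylation in vehicle pools (x, %) and in the bypass culture (y, %), with a logarithmic colour scale and a dashed line of equal level. The right panel gives the mean difference in percentage points by CpG density quartile, with 1 bar for each level class; the bars of the 20 to 50% class rise from 12.9 to 22.9 points.

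The share of reads falling in each density quartile was alike in both groups. The densest quartile took 40.1 to 44.2% of the reads of measured windows in the bypass libraries and 40 to 43.9% in the vehicle pools. The sparsest took 13.8 to 16.2% and 14.1 to 16.0%. The ranges of the groups overlapped in the other quartiles too.

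Windows called in opposite directions differed in density and level. Those called higher had a median of 28 positions and those called lower 13, beside 19 over all tested windows. The limit on pooled methylation kept few dense windows in the test. It kept 1940 of 8308 measured windows in the densest quartile and 7351 of 8784 in the sparsest. The second density quartile of measured windows ended at 28 positions. The median of gains was thus close to that of measured windows, and a preference of gains for dense windows is not shown. The vehicle level had a median of 22.3% in windows called higher and 78.0% in those called lower. These levels enter the call itself, so they are a description. Among gains, 2204 (48.5%) started under 20% in the vehicle pools, beside 27.3% of all tested windows. Low windows could enter the test through a gain in bypass, so the second share is not a background for the first. Of all 33678 measured windows, 17164 were under 20% in the vehicle pools. An excess of low starts among gains is thus not shown. Among gains, 1913 (42.1%) ended at 80% or more in bypass, beside 37.9% of tested windows. Among losses, 142 (46.0%) started at 80% or more, beside 25.9% of all tested windows, and 71 (23.0%) ended under 20%, beside 17.3%.

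Called gains lay within 2 kb of another in 913 windows (20.1%), which formed 400 runs. Called losses did so in 4 windows (1.29%), which formed 2 runs. Losses were far fewer, and the difference between these shares was not tested. With 22.7% of tested windows called higher, some neighbours would be called without clustering. No expected share was computed, so clustering of gains was not tested. Where at least 3 positions on each strand were read in all 8 libraries, 763 of 771 windows called higher and 14 of 15 called lower moved in the same direction on both strands. The call sums both strands, so agreement in direction is partly built in. Both strands moved by at least 10 points in 558 (72.4%) of these gains and 9 (60%) of these losses. The fetal origins of the groups differ, and the part of sequence differences such as C-to-T in windows read on 1 strand was not tested.

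The called windows were also read in the other groups, whose libraries took no part in choosing them. The 3258 windows called higher and measured in all 24 libraries averaged 56.8% ± 0.548 in bypass and 27.4% ± 1.73 in vehicle pools. Their levels were 30.1% ± 0.325 in B[a]P pools, 32.5% ± 3.75 in normal colonies, 35.2% ± 1.51 in transformed colonies and 44.1% ± 0.765 in the senescent culture (SD, n = 4). In the senescent culture 47.0% of these windows were within 10 points of the bypass level and 39.9% within 10 points of the vehicle level. In the B[a]P pools 78.9% were within 10 points of the vehicle level. Such shares were not computed over all tested windows, so these are a description.

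The 169 windows called lower and measured in all libraries averaged 38.4% ± 0.874 in bypass and 66.8% ± 1.40 in vehicle pools. They averaged 61.6% ± 1.71 in B[a]P pools, 56.4% ± 2.71 in normal colonies, 58.2% ± 2.41 in transformed colonies and 48.2% ± 0.958 in the senescent culture (SD, n = 4). In senescence 54.4% of them were within 10 points of the bypass level and 29.0% within 10 points of the vehicle level. These shares also have no counterpart over all tested windows.

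The 10 largest increases ran from 78.8 to 86.2 points. They were taken from 2049 windows called higher with separated groups and at least 5 positions and 100 reads in each library. Each strand with at least 3 positions in all 8 libraries also had to move in the same direction. On KB708213.1 and KB708150.1 no strand had that many, so the strand condition did not test them. Both strands did on KB709864.1 and KB708130.1, and 1 strand on the others. On KB709864.1, positions 1001 to 2000, the bypass libraries were at 93.3%, 91.5%, 90.2% and 86.0%. The vehicle pools were at 1.32%, 8.00%, 6.36% and 0.625% there. The window went from nearly unmethylated in every pool to nearly full in every bypass library (90.2% ± 3.12 against 4.08% ± 3.66, SD, n = 4; adjusted p = 7.94e-05, quasi-binomial test with limma squeezing). Both strands showed it, at 86.3% against 4.21% on the forward and 96.7% against 4.89% on the reverse strand. The window had 7 listed positions and 112 to 314 reads in each library, where a read over several positions counts at each of them. Its level was 9.96% ± 8.65 in B[a]P pools, 44.3% ± 17.5 in normal colonies and 23.4% ± 20.8 in transformed colonies. In the senescent culture it was 58.3% ± 12.6 (SD, n = 4).

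On KB708130.1, positions 34378001 to 34379000, the bypass libraries were at 90.9%, 92.2%, 95.1% and 94.2%. The vehicle pools were at 10.4%, 6.14%, 14.3% and 8.37%. This window had 63 listed positions and 552 to 3352 reads per library, and its adjusted p was the smallest of the 10 (1.07e-07; edgeR adjusted p = 0.00549). It stood at 18.6% in B[a]P pools, 13.5% in normal colonies, 34.1% in transformed colonies and 79.5% in the senescent culture. It was thus mostly methylated by day 48.

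On KB708133.1, positions 287001 to 288000, the bypass libraries were at 95.4%, 87.2%, 94.2% and 93.6%. The vehicle pools were at 3.81%, 4.01%, 12% and 13.0%. Its senescent level, 87.2%, was also near that of bypass, and its adjusted p was 5.48e-06 (quasi-binomial test with limma squeezing).

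On KB708150.1, positions 15988001 to 15989000, the order in time was different. The bypass libraries were at 73.9%, 83.4%, 88.1% and 84.5%. The vehicle pools were at 0%, 14.7%, 0% and 0%, and the senescent culture was at 12.6%. On KB713901.1, positions 2001 to 3000, the bypass libraries were at 92.7%, 95.6%, 74.6% and 93.9%, the vehicle pools at 8.50%, 10.7%, 4.67% and 5.83%, and the senescent culture at 25.3%. Both windows were thus nearer the vehicle level than the bypass level at day 48.

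The other 5 increases lay at KB708213.1 from 7921001 to 7922000, KB708292.1 from 45001 to 46000, KB708304.1 from 1433001 to 1434000, KB708313.1 from 2136001 to 2137000 and KB708194.1 from 3652001 to 3653000. Their vehicle means were 3.95%, 11.1%, 1.48%, 8.12% and 8.50%, and their bypass means 88.2%, 95.1%, 84.8%, 90.9% and 91.2%. The highest vehicle pool in these 5 windows was replicate 2 on KB708292.1, at 28.6%, and the lowest bypass library was replicate 4 on KB708304.1, at 68.8%. Of the 10 increases, 9 passed in edgeR's quasi-likelihood test as well (adjusted p of 0.00549 to 0.0365), and KB708313.1 did not (0.0517).

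The 10 largest decreases, among 69 eligible windows, ran from 37.7 to 59.3 points in size. Their spread was wider in most windows, but not in the bypass libraries on KB708146.1 and KB708148.1. No strand had at least 3 positions in all 8 libraries on KB708211.1, KB708151.1, KB708148.1 and KB708228.1. On the other decreases 1 strand did. On KB708146.1, positions 13327001 to 13328000, the bypass libraries were at 5.19%, 6.34%, 5.71% and 2.02%. The vehicle pools were at 36.4%, 81.6%, 41.1% and 58.0% there. The bypass libraries were tightly grouped near 0, and the pools ranged widely at intermediate levels (4.81% ± 1.93 against 54.3% ± 20.4, SD, n = 4; adjusted p = 0.00117, quasi-binomial test with limma squeezing). The senescent culture, at 4.62%, was already at the bypass level, while the B[a]P pools were at 53.6%. This was the only decrease of the 10 that also passed edgeR's test (adjusted p = 0.0352), and it rests on 5 positions of the forward strand.

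On KB708148.1, positions 16846001 to 16847000, the bypass libraries were at 0%, 0.725%, 5.87% and 0.985%, and the vehicle pools at 67.9%, 36.0%, 20.2% and 42.6%. The colonies ranged widely, with means of 40.1% (normal) and 39.7% (transformed), and the senescent culture was at 4.22%. On KB708136.1, positions 11966001 to 11967000, the bypass libraries were at 46.3%, 64.6%, 48.2% and 24.0%, and the vehicle pools at 94.8%, 94.4%, 82.8% and 80.5%. Here the senescent culture, at 86.1%, was at the vehicle level.

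On KB708211.1, positions 2340001 to 2341000, the decrease had the largest size, from 84.2% ± 14.6 in vehicle to 24.9% ± 19.3 in bypass (SD, n = 4). On KB708179.1, positions 5618001 to 5619000, the level was 71.7% ± 11.2 and 12.6% ± 16.5. On KB708344.1, positions 1149001 to 1150000, it was 54.3% ± 10.6 and 10.1% ± 8.05. The other 4 decreases were at KB708151.1 from 8880001 to 8881000, KB708174.1 from 8751001 to 8752000, KB708267.1 from 4640001 to 4641000 and KB708228.1 from 7024001 to 7025000, with bypass means of 15.7% to 38.7% and vehicle means of 60.6% to 76.5%. Leaving out single libraries ended the call of KB708151.1, KB708174.1 and KB708267.1. KB708151.1 was lost without bypass replicate 1, 2 or 4 or vehicle replicate 1, 2 or 3 (adjusted p of 0.0542 to 0.0736). KB708174.1 was lost without vehicle replicate 1 (0.0509), and KB708267.1 without bypass replicate 1 or 4 or vehicle replicate 2, 3 or 4 (0.0508 to 0.0853). Of the 5 decreases that could be tested over positions listed in every library, KB708179.1 (adjusted p = 0.288, quasi-binomial test with limma squeezing) and KB708174.1 (0.114) were no longer called.

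**Figure D3:**
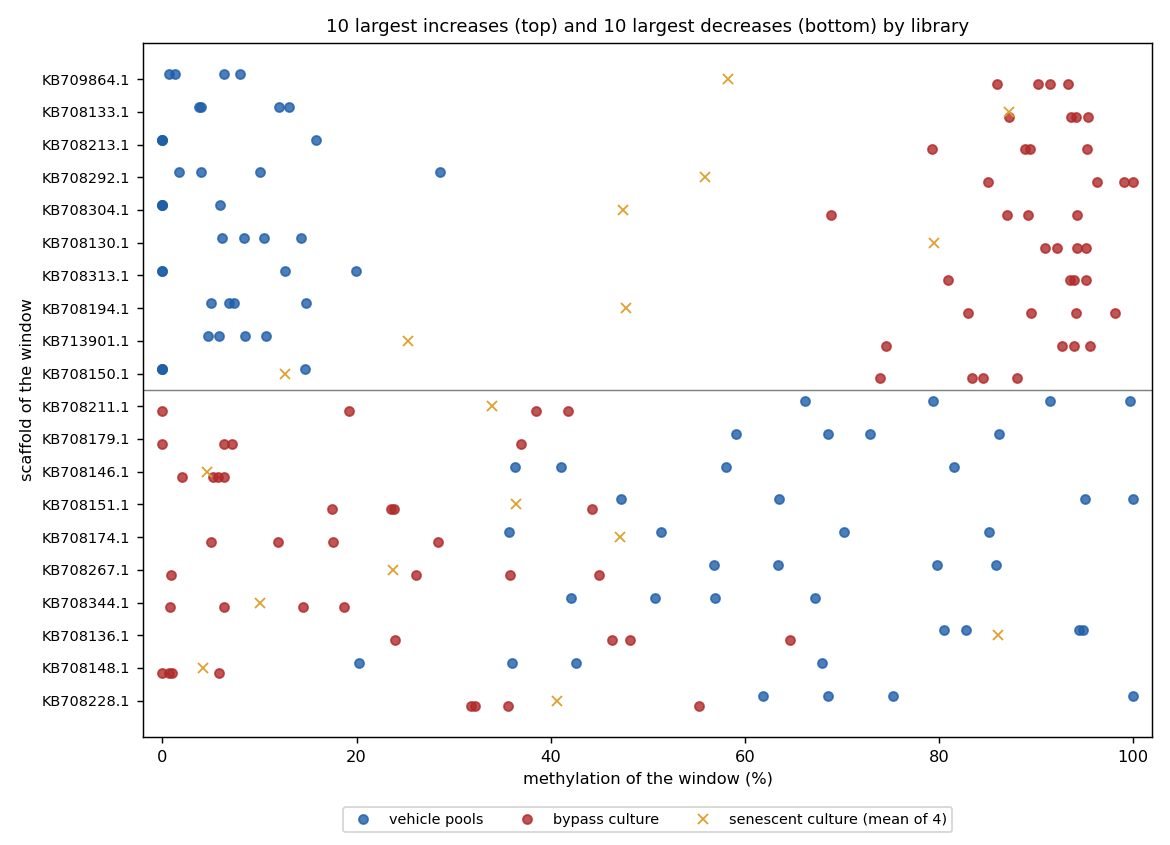
Methylation (x, %) of the 10 windows with the largest increase (upper rows) and the 10 with the largest decrease (lower rows), 1 dot per library for vehicle pools and the bypass culture and a cross for the mean of the senescent culture where all 4 of its libraries were measured. Bypass libraries cluster between 68.8% and 100% in the upper rows. In most of the lower rows both groups spread more widely, but the bypass libraries on KB708146.1 and KB708148.1 stay close together.

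Among runs, those with the most called windows gained methylation. The longest, on KB708274.1 from 800001 to 813000, held 10 windows called higher among 11 tested. Their mean was 72.6%, 72.4%, 70.9% and 73.7% in the bypass libraries and 26.7%, 25.2%, 25.2% and 27.7% in the vehicle pools. Inside the run the gain was uneven. The windows at 800001 and 801001 were already at 83.0% ± 10.3 and 82.5% ± 5.14 in vehicle, and the windows from 803001 to 809000 held a valley of low methylation there.

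In that valley the window at 803001, with 99 positions, went from 0.812% ± 1.55 to 48.6% ± 5.97, and the window at 804001, with 136 positions, from 1.54% ± 0.996 to 31.9% ± 9.62 (SD, n = 4). The windows at 805001, 806001, 807001 and 808001 reached 71.3%, 69.3%, 78.0% and 72.4% from 11.1%, 3.90%, 2.53% and 8.67%. The lowest levels reached in the valley were thus in windows of 99 and 136 positions. The window at 808001, with 130 positions, was among the higher ones. A relation of the level reached to density was not tested. The window of the run that was not called, at 802001, ranged from 0 to 95% in the vehicle pools (48.3% ± 39.7, SD, n = 4; adjusted p = 0.111, quasi-binomial test with limma squeezing). Over the 9 called windows of the run measured in all 24 libraries, the means were 28.7% in vehicle pools, 27.9% in B[a]P pools, 34.1% in normal and 38.9% in transformed colonies, 41.8% in senescence and 72.8% in bypass.

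**Figure D4:**
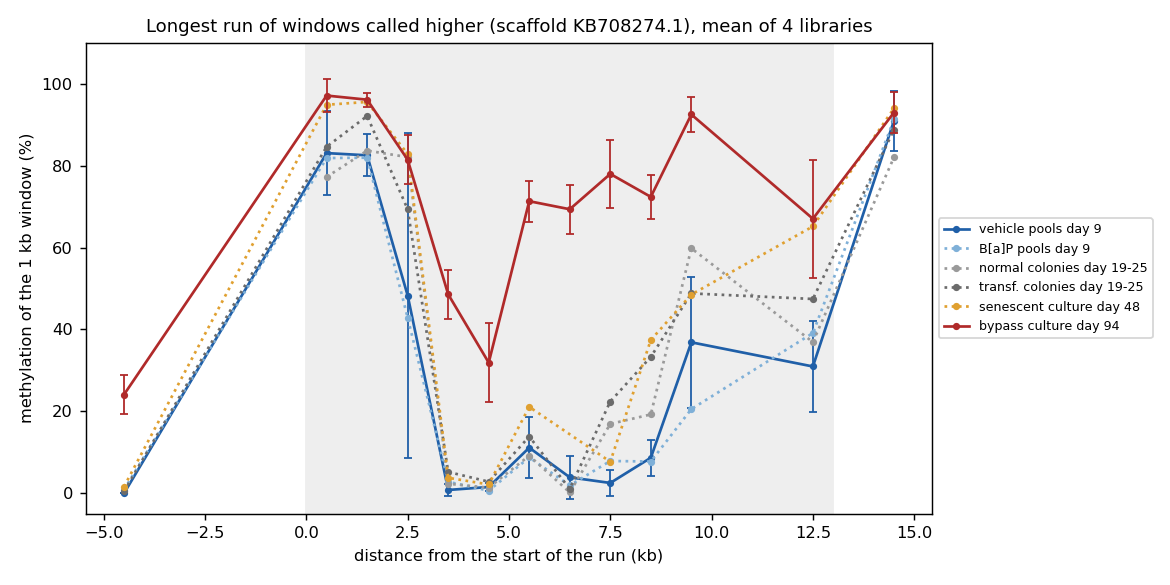
Methylation (y, %) of the tested 1 kb windows along the longest run, against distance from its start (x, kb), as means of 4 libraries with SD bars for vehicle pools and the bypass culture; the run is shaded and groups are shown where all 4 libraries were measured. In the valley the vehicle mean is as low as 0.812% and the bypass mean between 31.9% and 78.0%.

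The next longest were KB708200.1 from 7152001 to 7162000 (7 called windows of 8 tested), KB708133.1 from 20564001 to 20576000 (6 of 6), KB708264.1 from 2708001 to 2716000 (6 of 6) and KB708174.1 from 6446001 to 6454000 (5 of 6). Their called windows averaged 63.5% ± 4.43 against 25.0% ± 4.46, 71.3% ± 5.20 against 11.3% ± 4.49, 59.7% ± 7.30 against 16.3% ± 2.46, and 28.9% ± 5.15 against 4.78% ± 2.91 in bypass and vehicle (SD, n = 4). The windows were chosen by these differences. On KB708264.1 the senescent culture was at 51.6% and the transformed colonies at 38.0%. On KB708133.1 the senescent culture was at 36.1% over the 5 called windows measured in all 24 libraries, beside 72.4% in bypass and 12.5% in vehicle.

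Read coverage was compared per scaffold, since lower coverage in one group can mark fewer copies of that sequence in the cells. Of 248 scaffolds with at least 200 positions in each library, 10 (4.03%) had lower coverage in the bypass culture and none had higher, at an adjusted p below 0.05 and a log2 ratio of at least 0.3 in size (edgeR's quasi-likelihood test, Benjamini-Hochberg). The other 238 lay between -0.24 and 0.25 on the log2 scale. Of these, 4 passed the adjusted p alone. The 10 scaffolds spanned 88.5 Mb from first to last listed position.

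On KB708219.1, over 9.16 Mb, the log2 share of coverage relative to the vehicle mean was -1.14, -0.97, -1.07 and -0.97 in the bypass libraries. It was between -0.01 and 0.02 in the 4 vehicle pools. The groups were far apart, with a fitted log2 ratio of -1.08 (edgeR adjusted p = 8.06e-16), or 0.472 of the vehicle coverage. On KB708217.1 (9.49 Mb), the bypass libraries were at -1.01, -0.96, -0.97 and -0.93 (ratio 0.494, edgeR adjusted p = 1.79e-18). On KB708236.1 (7.70 Mb) they were at -1.01, -0.97, -1.04 and -0.97 (ratio 0.485, adjusted p = 2.18e-16).

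The ratios were 0.502 on KB708283.1 (4.16 Mb), 0.505 on KB708250.1 (6.95 Mb), 0.510 on KB708293.1 (3.84 Mb), 0.537 on KB708172.1 (14.1 Mb) and 0.539 on KB708178.1 (13.6 Mb). On KB708359.1 (1.34 Mb) the ratio was 0.453, with bypass libraries between -1.27 and -0.90 and vehicle pools between -0.24 and 0.13 on the log2 scale. On these 9 scaffolds the ratios thus lay between 0.453 and 0.539. The ratio of KB708172.1 depended on the limit on coverage. With positions in the top 0.1% of coverage kept, its log2 ratio was -0.54, beside -0.90 without them. In the bins of 250 kb of these 9 scaffolds, 138 of 142 had a log2 ratio under -0.5. Most bins came from few scaffolds, with 37 on KB708217.1, 31 on KB708219.1 and 29 on KB708236.1. Only 2 lay on KB708250.1, 5 on KB708178.1 and 12 on KB708172.1, so bins cover little of these scaffolds. The exceptions were 1 bin each on KB708172.1 from 11500001 to 11750000 (-0.36), KB708217.1 from 6000001 to 6250000 (0.31), KB708236.1 from 1 to 250000 (-0.26) and KB708293.1 from 1 to 250000 (-0.49). The bin on KB708217.1 was uneven, with bypass replicate 2 at -1.0 and the others at 0.67 to 0.83.

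On KB708158.1 the change began inside the scaffold. The 11 measured bins up to 4500000 averaged 0.07 ± 0.25 on the log2 scale, and the 21 bins from 4750001 to 14500000 averaged -1.02 ± 0.18 (SD over bins). The ratio over the whole scaffold, 0.637, mixes both parts. Over the 142 bins of the 9 other scaffolds the median log2 ratio to the vehicle pools was -1.05 in bypass, -0.02 in the senescent culture, -0.03 in transformed and in normal colonies and -0.0028 in B[a]P pools. Coverage of these scaffolds in the senescent culture, the same culture at day 48, was therefore near that of the pools.

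**Figure D5:**
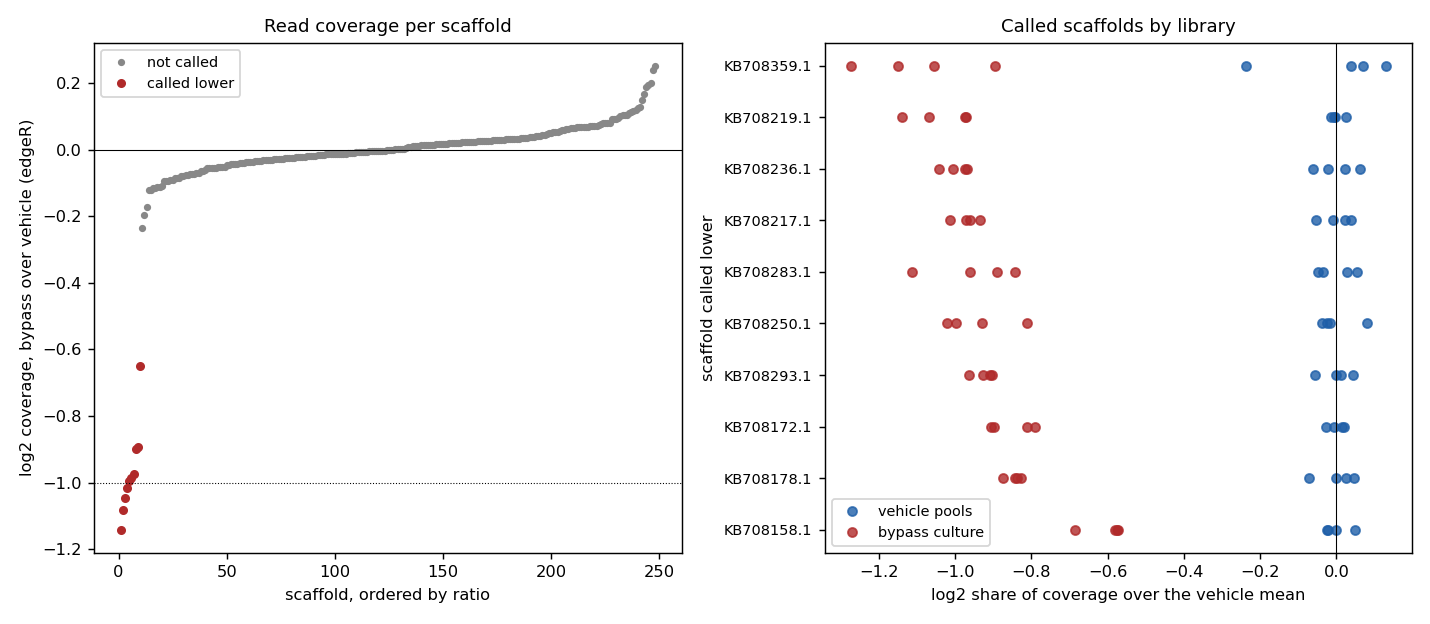
Left, the fitted log2 coverage ratio of bypass to vehicle for 248 scaffolds, ordered by this ratio, with the 10 called lower in red. Right, the log2 share of coverage relative to the vehicle mean for each library on those 10 scaffolds, where bypass libraries lie between -1.27 and -0.57 and vehicle pools between -0.24 and 0.13.

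The lower coverage held at every CpG density. Over the 9 scaffolds the mean log2 ratio was -0.99 ± 0.04 in windows of the sparsest quartile, -1.02 ± 0.04 in the second, -0.98 ± 0.05 in the third and -1.07 ± 0.08 in the densest (SD, n = 4 bypass libraries). Positions under 10 reads are not in the files, so a drop in depth removes positions and can make a ratio of sums too low. Over positions with a mean of at least 50 reads in the B[a]P pools, where few would be lost this way, 5 of the 10 scaffolds had enough positions. Their log2 ratios were -1.05 on KB708219.1, -1.10 on KB708236.1, -0.99 on KB708217.1, -0.61 on KB708172.1 and -0.55 on KB708158.1. When each position had to be listed in every one of the 8 libraries, a condition that favours positions of higher coverage, 2 of them could be tested, at -0.75 on KB708217.1 and -0.38 on KB708158.1.

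Outside the 10 scaffolds, 11 of 3863 bins lay under -0.5 and 11 above 0.5. The 4 bypass libraries agreed on the low side in 1 bin, KB708156.1 from 13000001 to 13250000 (-0.53, -0.62, -0.98 and -0.59), and on the high side in none. No window was empty in the bypass culture alone: of 25310 windows measured in every one of the 20 other libraries, 0 lacked any listed position in all 4 bypass libraries. For the vehicle pools the count was 1 of 26877. Complete loss of a window read in the other groups was therefore not detected at the depth of these libraries, within the CpG-rich part of the genome that this assay reads.

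Methylation was also higher in bypass on the scaffolds of lower coverage. Their 558 tested windows averaged 57.1% ± 0.356 in bypass and 47.5% ± 1.55 in vehicle, a difference of 9.62 points. The 19461 tested windows of other scaffolds averaged 60.9% ± 0.185 and 51.2% ± 1.1 (SD, n = 4), a difference of 9.74 points. The gap between these differences was -0.113 points (exact permutation test over libraries, two-sided p = 0.743). Windows called higher made up 21.3% of those tested on the scaffolds of lower coverage and 22.7% elsewhere, and windows called lower 1.97% and 1.53%.

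The level reached was read in windows that began low. Of windows called higher that started under 20% in the vehicle pools, 67 lay on the scaffolds of lower coverage and 2137 elsewhere. Their median bypass level was 28.6% and 27.1%. A level of 80% or more was reached by 2 of the 67 (2.99%) and by 106 of the 2137 (4.96%), and a level under 40% by 41 (61.2%) and 1446 (67.7%). Most gains from a low start thus ended under 40% in both sets, and the difference between the sets was not tested.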

How the data were processed

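Reduced representation bisulfite libraries of genomic DNA were used, 8 for the comparison and 16 for levels beside it, grouped and numbered by the sample titles. Tools named per the submitters' processing notes are methylKit 1.10.0, Bismark 0.22.1, R 3.6.1, Bowtie2, Trim Galore 0.5.0 and bcl2fastq 2.20.0.42. Their roles, settings and the genome build are not given in the sources used here. Per the file headers, each deposited table lists CpG positions by strand, with coverage as an unnormalised count and the percent of reads with C or T. No position under 10 reads is listed. Methylated reads were taken as coverage times percent over 100. Whether PCR copies were removed is not given, so counting error alone understates the error.

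Positions in the top 0.1% of coverage of a library were left out and reads summed over 1 kb windows with at least 3 positions per library. The window test was a quasi-binomial model of group on methylated and unmethylated reads, with Pearson dispersions squeezed by the limma method (floor of 1, 10 classes of pooled methylation; checked against limma 3.58.1), an F test and Benjamini-Hochberg adjustment, in Python 3.11.15. Reads count once per position, so dispersion (median 26.1) holds more than replicate differences. Coverage per scaffold was tested with edgeR 4.0.16 (TMM); DESeq2 1.42.0 was an alternative. Means per library were compared by exact permutation. Both tests were tried on simulated data. Libraries of a group differed by more than binomial counting noise (lowest mean chi-square per position 21.1 over pairs), which does not show that the bypass libraries are independent samples.

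The windows named were the 10 strongest increases and 10 strongest decreases among called windows that met the limits given beside them, the 5 longest runs of called windows up to 2 kb apart, and all called scaffolds. The members, lists, tests and alternatives were chosen with earlier results of these data known.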

Additional observations from a re-analysis of the deposited data

Results flagged for a closer look

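In 78 groups of 4 values (both groups for the means per library, classes, quartiles, named windows and called scaffolds), 9 had a library far from the other 3. A rate of 1 in 20 would give about 3.9. That rate does not hold where the other values sit at 0%, so the counts are not compared. Of class means, vehicle replicate 2 was low in windows at 50 to 80%, at 65.5% beside 67.8 to 68.3%. Among windows, bypass replicate 2 was at 81.0% on KB708313.1 (others 93.5 to 95.1%), bypass replicate 3 at 74.6% on KB713901.1 (92.7 to 95.6%) and at 5.87% on KB708148.1 (0 to 0.985%), and bypass replicate 1 at 55.2% on KB708228.1 (31.8 to 35.6%). Vehicle replicate 4 was at 15.8% on KB708213.1, and vehicle replicate 2 at 5.92% on KB708304.1 and 14.7% on KB708150.1, with the 3 others at 0% in each. In coverage, bypass replicate 1 was at -0.68 on KB708158.1 (log2; others -0.58 to -0.57).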

How the results depend on the processing

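The replicate numbers are shared by name only: deviations of same-numbered libraries correlated between -0.0081 and 0.011. With a replicate block 3983 windows were called, 3753 of them higher and 230 lower; the mean difference over positions stayed 4.58 points, and its paired exact permutation p of 0.125 is the smallest that 4 pairs allow. Counts of windows called (in all, higher, lower) were 2330, 2177 and 153 with at least 20 reads per position, 3130, 2995 and 135 with at least 5 positions, 3050, 2855 and 195 without squeezing, 938, 807 and 131 over positions listed in all 8 libraries, 1458, 1374 and 84 on the forward and 1576, 1477 and 99 on the reverse strand, and 757, 744 and 13 in edgeR's test. The strand, depth, position-number and shared-position settings test fewer windows (4629 to 9644). For the lower counts without squeezing and in edgeR the cause was not tested. Over windows measured in all 24 libraries, an alternative chosen after seeing the data, 193 were called lower. The share of calls that were higher was 86.0% over shared positions and 92.4 to 98.3% in the other settings. Without each library in turn, 4193 to 4852 windows were called, 3947 to 4493 higher and 240 to 359 lower.

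The mean difference over positions was 4.41 to 4.94 points without each library. The class differences were 5.18 to 5.31, 16.7 to 18.3, 5.99 to 7.0 and 3.08 to 3.59 points from the lowest class up, and the quartile differences 5.00 to 5.85, 7.38 to 8.26, 7.06 to 7.41 and 4.03 to 4.20 points from sparse to dense. The 80% or more class fell to 0.941 points with classes set by the vehicle pools, and the 50 to 80% class to 3.58 points over shared positions. Under the alternatives run, no class, quartile or named result changed direction. The number of scaffolds called was 10 without each library; it was 2 of 90 over shared positions and 5 of 108 over deep positions, where fewer scaffolds could be tested. Of the named decreases, KB708151.1, KB708174.1, KB708267.1 and KB708228.1 were lost without squeezing (adjusted p of 0.0613 to 0.138), KB708151.1 (0.0511) and KB708228.1 (0.0550) with the block, KB708179.1 and KB708174.1 over shared positions (2 of 5 tested), and KB708174.1 on the reverse strand alone (0.0974). Depth limits the tests to windows read in all 8 libraries, and vehicle replicate 2 had the fewest positions.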
